A study of Mus musculus with 4 samples.

Results

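The Frizzled receptors and Lrp6 are the cell-surface receptors of Wnt ligands. All probe sets whose platform gene symbol was Fzd1 to Fzd9 or Lrp6 were taken, which gave 26 of the 45101 probe sets on the array, for 10 of 18193 named genes. The cells were satellite cells, which are the stem cells of adult muscle, sorted as YFP-positive cells from mouse muscle and not cultured. The conditional knockout (Calcr-cKO, here cKO) mice were Calcr flox/flox and the control mice Calcr +/+, where Calcr encodes the calcitonin receptor. Both genotypes carried 1 allele of the tamoxifen-dependent Pax7-CreERT2 driver (Pax7Cre/+) and the Rosa-YFP reporter on both alleles (Rosa-YFP/YFP), and both received tamoxifen. Mice were 10 weeks old and cells were sorted 2 weeks after tamoxifen. The Cre acts in cells that express Pax7, and YFP marks a cell in which Cre recombined the reporter, which is a separate locus from Calcr. Each group held 2 biological replicates, numbered 1 and 2 in the titles, on 1 array each. The labels do not say whether equal numbers share a litter, a batch or a day, nor how many mice a sample pooled, so p-values measure the spread between these samples.

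A Frizzled protein spans the membrane 7 times and binds Wnt through an extracellular cysteine-rich domain. Lrp6 is a single-pass co-receptor; when Wnt joins it to a Frizzled, its cytoplasmic tail binds Axin, and beta-catenin escapes degradation. Frizzled proteins also act without beta-catenin, among other routes in planar cell polarity. In satellite cells, Fzd7 is best known as the receptor through which Wnt7a drives symmetric expansion of the stem cell pool in mouse muscle.

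The values were MAS5 signals, an intensity per probe set and array in arbitrary units. Median signals over all probe sets were 68.8 and 57.9 on cKO arrays 1 and 2, and 70.4 and 64.4 on control arrays 1 and 2. Calcr, the targeted gene, read 568 and 684 in cKO cells, against 1268 and 1424 in control cells, without overlap; whether its probe set lies in the deleted part of the gene is not known here. All 12 listed satellite cell markers passed the filter on low values described next, among them Sdc4, a heparan sulphate proteoglycan of the cell surface, at 4802 and 4707 in cKO cells and 4813 and 5803 in control cells. The marker lists of other cell types were also measured. Of 12 fibro-adipogenic progenitor and tenocyte genes, 5 passed the filter, with a summed signal of 18677 and 20327 in cKO cells and 18531 and 22254 in control cells. Of 14 adult muscle fibre genes, 13 passed, with 3501 and 4633 in cKO cells and 6028 and 3165 in control cells. The part of other cell types in the Frizzled and Lrp6 signals was not tested. The summed signal of the 16 of 18 endothelial genes that passed the filter was 12827 and 1704 on cKO arrays 1 and 2, and 13973 and 1347 on control arrays 1 and 2, and no endothelial marker was listed at 0.

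How bright a probe set reads depends on its own sequence, so signals were not ranked between genes. To show how bright the array reads where no transcript is known in these cells, 28 genes of retina, lens, liver, pancreas, germ cells and other tissues were listed, of which 25 were on the array by symbol. Their 40 probe sets had a median signal of 8.63 over the 4 arrays, a 90th percentile of 40.7 and a highest value of 90.4. The filter kept a probe set when its mean log2 value was at or above the array-wide median, which corresponds to 64.0 in signal. It kept 13 of the 26 Frizzled and Lrp6 probe sets, from 8 of the 10 genes, and none for Fzd6 and Fzd9. Detection calls were not used here, so a low signal does not show that a gene is silent.

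Lrp6 and 5 of the Frizzled genes (Fzd1, Fzd4, Fzd5, Fzd7 and Fzd8) had at least 1 probe set that read above 90.4 on all 4 arrays. These were 9 of the 26 probe sets, and the same 9 read above the filter signal on every array. They were 9 of the 13 kept probe sets, while 74% of all kept probe sets read above 90.4 on every array. Of the other 17, 15 stayed below 90.4 on all arrays.

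**Figure D1:**
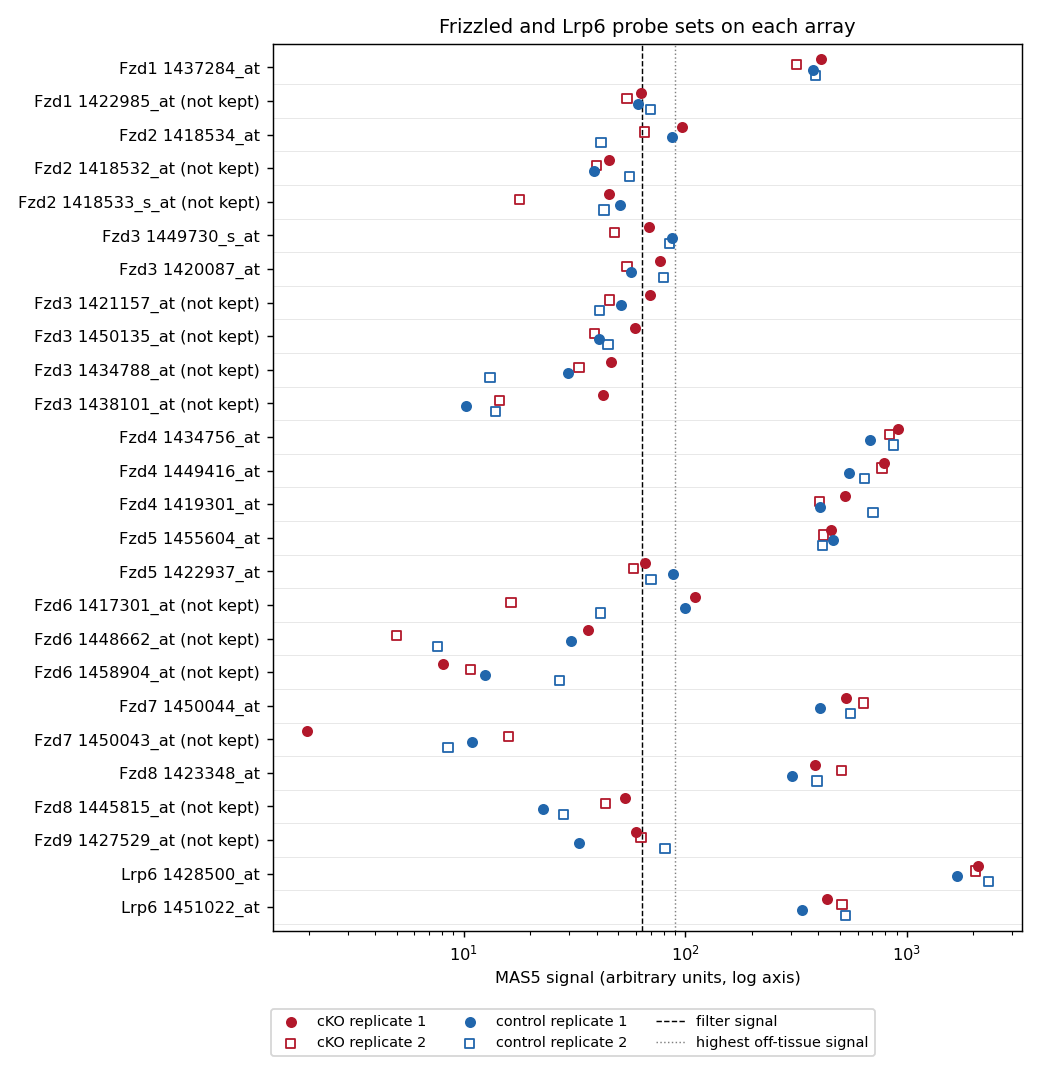
MAS5 signal (log axis) of each of the 26 Frizzled and Lrp6 probe sets on the 4 arrays. Red marks cKO and blue control, filled circles replicate 1 and open squares replicate 2; the dashed line is the filter signal of 64.0 and the dotted line the highest off-tissue signal of 90.4. The 9 probe sets right of the dotted line on every array belong to Fzd1, Fzd4, Fzd5, Fzd7, Fzd8 and Lrp6.

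Lrp6, the co-receptor, was read by 2 probe sets, both bright on every array. The first (1428500_at) read 2089 and 2050 in cKO cells, against 1682 and 2338 in control cells. The second (1451022_at) read 437 and 510 in cKO cells, against 336 and 529 in control cells. On both, the cKO arrays lay between the control arrays, so the groups overlapped. The log2 difference of cKO minus control was 0.06 on the first (SE 0.22, 95% interval -0.45 to 0.57) and 0.16 on the second (SE 0.34, interval -0.63 to 0.96). Without control replicate 1 the first became -0.18, on the other side of 0. The control arrays themselves differed by more than the genotypes, with a mean of 2069 ± 27.6 in cKO cells and 2010 ± 464 in control cells (SD, n = 2 each) on the first probe set.

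Fzd4, which besides Wnt binds norrin and is best known for vessel growth in the retina, was the Frizzled gene with all of its probe sets, 3 of 3, above 90.4 on every array. The probe set 1434756_at read 916 and 835 in cKO cells, against 684 and 872 in control cells. The probe set 1449416_at read 793 and 774 in cKO cells, against 548 and 645 in control cells. The third, 1419301_at, read 524 and 403 in cKO cells, against 405 and 705 in control cells. Both cKO arrays lay above both control arrays on 1449416_at alone, and the groups overlapped on the other 2. The log2 differences were 0.40 (SE 0.27, interval -0.23 to 1.03) on 1449416_at, 0.18 on 1434756_at and -0.22 on 1419301_at, so the probe sets of this gene did not share a sign. With an unadjusted limma p of 0.181, 1449416_at had the smallest p of the 13 kept probe sets, and its adjusted limma p was 0.99999.

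Fzd7, the Wnt7a receptor, read 533 and 641 in cKO cells, against 405 and 557 in control cells, on 1450044_at. The groups overlapped, with a log2 difference of 0.30 (SE 0.31, interval -0.43 to 1.03). Its other probe set, 1450043_at, read between 1.96 and 16.0 on all 4 arrays, within the range of the off-tissue genes. The sources used here do not say which part of the transcript each probe set reads.

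Fzd8, a further receptor that can work with Lrp6 to stabilise beta-catenin, read 384 and 507 in cKO cells, against 305 and 394 in control cells, on 1423348_at. The log2 difference was 0.35 (SE 0.33, interval -0.42 to 1.12), and the lower cKO array lay just under the higher control array. Its dim probe set, 1445815_at, read 53.3 and 43.8 in cKO cells, against 22.7 and 28.4 in control cells. There the groups did not overlap, but the probe set did not pass the filter. Without a filter its unadjusted limma p was 0.122.

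Fzd5, needed for vessel growth in the mouse yolk sac and placenta, read 455 and 421 in cKO cells, against 463 and 416 in control cells, on 1455604_at. This was the smallest range over arrays of any kept Frizzled or Lrp6 probe set, and the log2 difference was -0.01 (SE 0.29, interval -0.70 to 0.69). Its other probe set, 1422937_at, read 65.7 and 58.6 in cKO cells, against 88.1 and 70.1 in control cells, without overlap and with a log2 difference of -0.34 (SE 0.41, interval -1.30 to 0.62). Its mean was 62.2 in cKO cells, under the filter signal of 64.0, and 79.1 in control cells, so it was kept through the control arrays. Fzd1, which acts with Fzd2 and Fzd7 in mouse heart and palate formation, read 411 and 318 in cKO cells, against 376 and 386 in control cells, on 1437284_at. The groups overlapped, with a log2 difference of -0.08 (SE 0.31, interval -0.81 to 0.66). Its other probe set read between 54.6 and 69.9 on all arrays.

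Fzd2, Fzd3, Fzd6 and Fzd9 had no probe set above 90.4 on every array. The brightest of the 3 probe sets of Fzd2, 1418534_at, read 96.7 and 65.3 in cKO cells, against 87.2 and 41.7 in control cells. Its log2 difference was 0.39, while the dimmer 1418533_s_at and 1418532_at, not kept, had -0.70 and -0.13. The groups overlapped on each of them. Fzd3, which guides axons and acts in planar cell polarity, had 6 probe sets and 2 kept. The kept 1449730_s_at read 68.5 and 48.1 in cKO cells, against 87.5 and 84.7 in control cells, without overlap (log2 difference -0.58, SE 0.42, interval -1.56 to 0.41). With a mean of 58.3 in cKO cells, under the filter signal of 64.0, and 86.1 in control cells, it was kept through the control arrays. The kept 1420087_at overlapped between the groups (-0.05). A pair of dimmer Fzd3 probe sets lay the other way without overlap: 1434788_at read 46.4 and 33.2 in cKO cells, against 29.5 and 13.2 in control cells, and 1438101_at read 42.5 and 14.5 in cKO cells, against 10.3 and 14.0 in control cells. The 6 probe sets of Fzd3 thus gave no common direction. Fzd9, studied in bone and blood cell formation in mice, had a single probe set, which read 60.2 and 63.3 in cKO cells, against 33.2 and 81.2 in control cells, and overlapped.

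RefSeq promoter windows (GRCm38.p6) were found for 5 of the 10 genes: Fzd1, Fzd4, Fzd5, Fzd7 and Fzd9. The windows of Fzd4 and Fzd7 are shown, as the Frizzled gene whose probe sets were all bright and the receptor best known in satellite cells. They lie at chr7:89404116-89404415 and chr1:59481897-59482196, both on the plus strand, and each runs from 250 bases before the gene's start to 50 after it. Capitals mark the GC box letters GGGCGG on either strand, and neighbouring matches can overlap.
Fzd4: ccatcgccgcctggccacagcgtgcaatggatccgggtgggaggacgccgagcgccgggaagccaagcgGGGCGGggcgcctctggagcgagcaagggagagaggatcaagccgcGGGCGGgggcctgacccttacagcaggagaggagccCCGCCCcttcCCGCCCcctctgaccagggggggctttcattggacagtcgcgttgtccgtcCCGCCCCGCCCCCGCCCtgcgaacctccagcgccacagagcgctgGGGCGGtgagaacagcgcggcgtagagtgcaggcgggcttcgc
Fzd7: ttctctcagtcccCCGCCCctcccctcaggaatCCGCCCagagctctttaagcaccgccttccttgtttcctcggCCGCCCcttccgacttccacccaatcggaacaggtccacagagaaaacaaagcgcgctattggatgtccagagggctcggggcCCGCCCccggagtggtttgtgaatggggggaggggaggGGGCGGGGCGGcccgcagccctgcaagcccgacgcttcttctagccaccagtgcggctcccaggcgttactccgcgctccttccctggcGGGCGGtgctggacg
The GC box was found 8 times in the Fzd4 window and 7 times in the Fzd7 window. Of all 32851 promoter windows of this length, 35.7% held at least 1, a share that counts windows and not matches. Fzd5 had 10, Fzd9 had 1 and Fzd1 had 0. G and C made up 72.7% of the letters in Fzd4, 66.7% in Fzd7, 75.7% in Fzd5, 78% in Fzd9 and 54% in Fzd1. The median over all windows was 52.7%. The TATA box letters TATAAA were found once, in Fzd1, against a share of 13.6% of all windows. The TCF/LEF core CTTTGA, the letters bound by the nuclear partners of beta-catenin, was found in Fzd1 (share of all windows 16.0%) and not in the other 4 windows, both strands searched. These are matches of letters and not sites.

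Between genotypes, no Frizzled or Lrp6 probe set was called. Of the 13 kept probe sets, 0 had an adjusted limma p under 0.05, and 0 of all 22505 did (0%). With an unadjusted threshold of 0.05 the counts were 0 of the 13 and 162 of all kept probe sets (0.72%). The median log2 difference over the 13 was 0.06, in a range of -0.58 to 0.40, against a median of -0.06 over all kept probe sets. Both cKO arrays lay above both control arrays on 1 of the 13 (7.87% of all kept probe sets) and below them on 2 of 13 (13.5% of all). Without a filter these counts were 4 and 3 of 26 (9.27% and 16.5% of all). The 2 of 13 that lay below, in Fzd3 and Fzd5, passed the filter through the control arrays, with cKO means under 64.0. Their lack of overlap is therefore a description only. An exact 2-sided permutation test of 2 against 2 arrays cannot go below p = 0.333. The 95% intervals reached a 2-fold difference, in either direction, on 8 of the 13 probe sets, which belong to Fzd2, Fzd3, Fzd4, Fzd5, Fzd7 and Fzd8. They stayed within 2-fold for Fzd1, both Lrp6 probe sets, and 1 probe set each of Fzd4 and Fzd5. The summed signal of the 12 satellite cell markers, Calcr among them, was 20857 and 20829 in cKO cells, against 21711 and 30137 in control cells. All 12 had a lower mean log2 signal in cKO cells as deposited, and 11 with arrays centred on their median or quantile normalized. As deposited, their median log2 difference was -0.31, and 4 lay below without overlap. Over all 10134 kept genes, 5807 were lower, with a median of -0.04, and 1221 lay below without overlap. No marker of this list was called, and that includes Calcr, the targeted gene. Its log2 difference was -1.11, with an unadjusted limma p of 0.00292 and an adjusted limma p of 0.99999. The lack of calls between genotypes thus does not show a lack of differences. Of 20 leukocyte genes 7 were kept, with a summed signal of 1384 and 540 in cKO cells, against 1395 and 2266 in control cells, and none of those measured was at 0. Fewer cells of a type and less RNA per cell cannot be told apart in these bulk samples.

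As deposited, 7 of the 13 were higher in cKO cells and 6 lower. Quantile normalization gave 9 and 4. Median-centred arrays gave 10 and 3 by adding a constant of 0.09 to every probe set, which leaves differences relative to the median probe set as they were; the median over all kept probe sets under these scalings was 0.01 and 0.04. Between the arrays numbered 1, 10 of the 13 were higher in cKO cells, against 55.2% of all kept probe sets. Between the arrays numbered 2, 5 of the 13 were higher, against 35.1% of all. The sign was up in both of these pairs for 4 of the 13 (16.1% of all), namely Fzd7, Fzd8, Fzd2 and the Fzd4 probe set 1449416_at, and down in both for 2 of the 13 (25.7% of all). Control replicate 1 was the lowest of the 4 arrays on 6 of the 9 bright probe sets (27.5% of the kept probe sets that read as bright), namely all but the Fzd1 and Fzd5 probe sets and 1 of Fzd4.

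**Figure D2:**
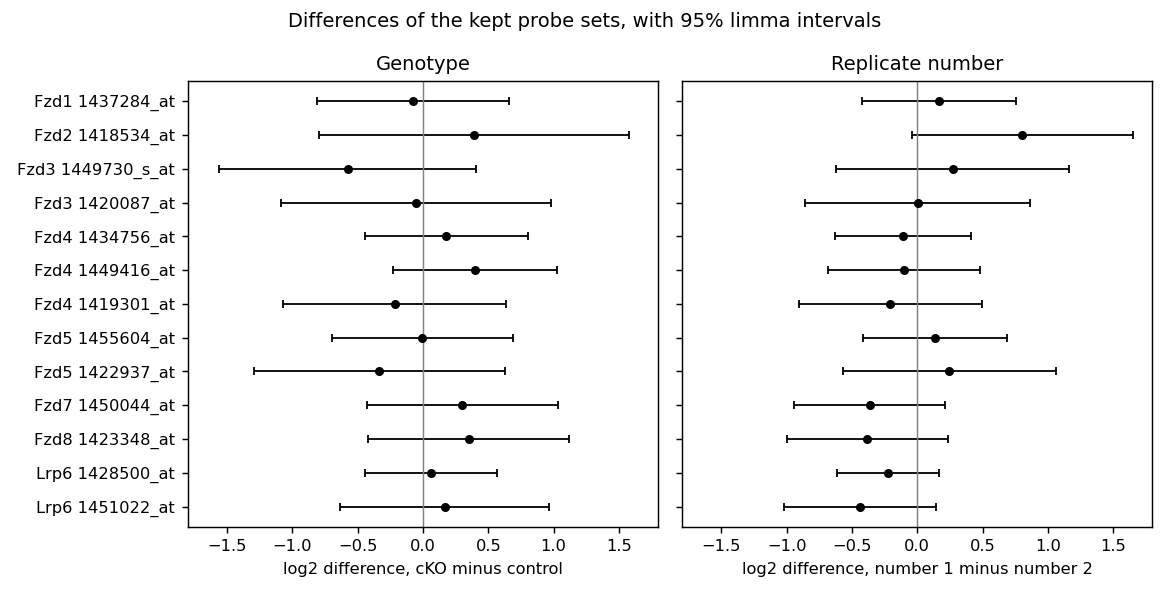
The log2 difference of the 13 kept probe sets, cKO minus control on the left and replicate number 1 minus number 2 on the right; points are differences of means over 2 arrays each, and bars are 95% limma intervals. Every interval includes 0.

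The arrays numbered 1 and 2 were also set against each other, over both genotypes. Number 1 against number 2 gave 519 called probe sets of 22505 (2.31%) at an adjusted limma p under 0.05, but 0 of the 13 kept Frizzled and Lrp6 probe sets. With an unadjusted threshold of 0.05 it was 0 of the 13, against 13.8% of all. Both number 1 arrays lay above both number 2 arrays on 2 of the 13, in Fzd2 and Fzd5 (26.2% of all kept probe sets), and below them on 3 of 13 (18.5% of all). The differences of the 13 ran from -0.44 to 0.80 on the log2 scale with a median of -0.10. The deposited scaling matters for this comparison: with arrays centred on their median, the median of all kept probe sets moved by -0.19, so differences are also given relative to the median probe set.

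Fzd2 had the largest difference by number of the 13. Its probe set 1418534_at read 96.7 (cKO) and 87.2 (control) on number 1, against 65.3 (cKO) and 41.7 (control) on number 2. Both arrays numbered 1 lay above both numbered 2, with a log2 difference of 0.80 (SE 0.38, interval -0.04 to 1.65, unadjusted limma p of 0.0602, adjusted p = 0.390). Relative to the median probe set it was 0.76. The probe set passed the filter of 64.0 on its mean over all arrays, while its mean was 92.0 on number 1 and 53.5 on number 2, so it was kept through the arrays where it is high. Of the other 2 probe sets of Fzd2, which were not kept, 1418533_s_at was higher on number 1 (0.76) and 1418532_at was not (-0.17).

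The second Lrp6 probe set, Fzd7 and Fzd8 lay lower on the arrays numbered 1. Lrp6 read 437 (cKO) and 336 (control) on number 1, against 510 (cKO) and 529 (control) on number 2, on 1451022_at. Fzd7 read 533 and 405 on number 1, against 641 and 557 on number 2, and Fzd8 read 384 and 305, against 507 and 394 (cKO first in each pair). On all 3 probe sets both number 1 arrays lay below both number 2 arrays. The log2 differences were -0.44 for Lrp6, -0.36 for Fzd7 and -0.38 for Fzd8, with adjusted limma p of 0.511, 0.592 and 0.596. Relative to the median probe set they were -0.48, -0.40 and -0.42. With arrays centred on their median, the Lrp6 probe sets 1428500_at and 1451022_at reached unadjusted limma p of 0.0358 and 0.0341, and neither was called after adjustment. In that setting, 2 of the 13 had an unadjusted limma p under 0.05, against 4057 of all 22505 kept probe sets.

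Fzd6, a planar cell polarity receptor known for hair patterning in mice, did not pass the filter, and its probe sets read within or near the off-tissue range. Its probe set 1417301_at read 111 (cKO) and 100 (control) on number 1, against 16.4 (cKO) and 41.5 (control) on number 2. The probe set 1448662_at read 36.6 and 30.7 on number 1, against 4.97 and 7.64 on number 2 (cKO first in each pair). All 4 values of the second lie below the off-tissue 90th percentile of 40.7, as does 1 value of the first, so the sizes of these differences rest on dim signals. The third, 1458904_at, lay the other way, at 8.10 and 12.5 on number 1 against 10.7 and 27.1 on number 2. The first 2 were more than 2-fold higher on number 1 in both genotypes, which held for 4.72% of all probe sets without a filter and for none of the other 24 here. Their log2 differences were 1.97 and 2.26. Without a filter, their unadjusted limma p were 0.00554 and 0.00438, and neither passed after adjustment (adjusted p = 0.182 and 0.162). At that threshold and without a filter, 0 of the 26 were called, against 1.07% of all probe sets.

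Endothelial transcripts moved with the same numbers. All 16 kept endothelial genes were higher on both arrays numbered 1, with a median log2 difference of 3.48, and 15 of them were called. Over all 10134 kept genes, 2131 were higher on both arrays numbered 1 and 284 were called in either direction. Some of the 16 passed the filter through number 1, such as Erg, with a mean of 269 on number 1 and 17.3 on number 2. Tie1 and Ushbp1, which did not pass, were also higher on both arrays numbered 1. Aqp1, a water channel, read 2827 (cKO) and 2854 (control) on number 1, against 249 (cKO) and 165 (control) on number 2. Of 13 pericyte and smooth muscle genes, 11 were kept, with a summed signal of 21073 (cKO) and 18363 (control) on number 1, against 10354 (cKO) and 13009 (control) on number 2, and none was at 0. Of these 11, 8 were higher on both arrays numbered 1 and 5 were called, with a median log2 difference of 1.45. The part of these transcripts in the Fzd6 difference was not tested. The 3 Fzd4 probe sets had log2 differences of -0.11, -0.10 and -0.21 for number 1 minus number 2.

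**Figure D3:**
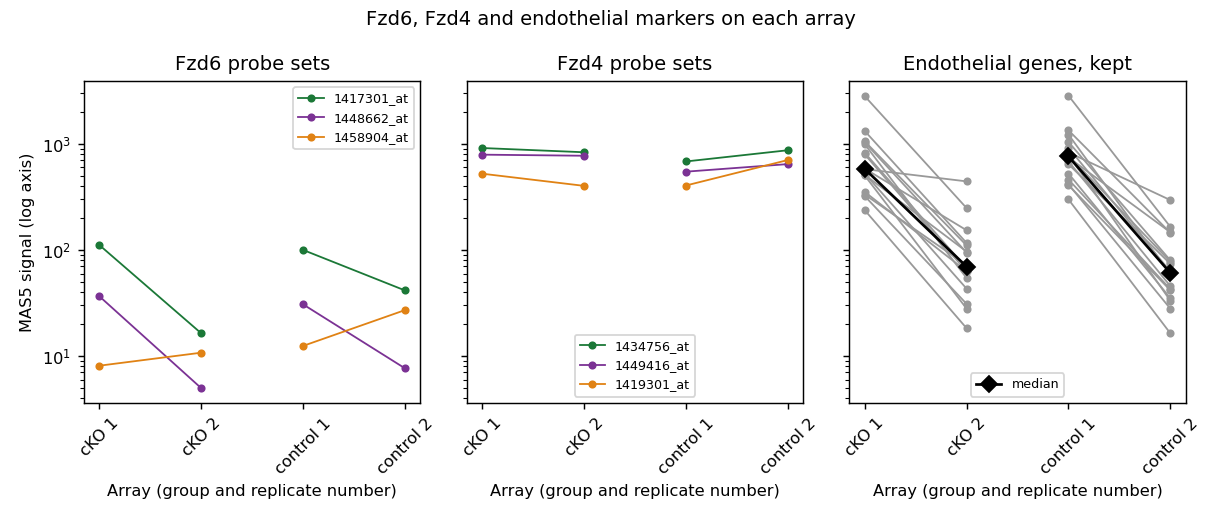
MAS5 signal (log axis) on each array for the 3 Fzd6 probe sets, the 3 Fzd4 probe sets and the 16 kept endothelial genes (grey, median in black); lines join replicate 1 to replicate 2 within a genotype. The endothelial median was 582 and 69.7 on cKO arrays 1 and 2, and 762 and 60.7 on control arrays 1 and 2.

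Of the 13 kept Frizzled and Lrp6 probe sets, the one with the widest range over the 4 arrays was 1418534_at of Fzd2. Among the brightest kept probe sets of 10133 other genes, those nearest to it in pattern over the 4 arrays, by Euclidean distance of centred log2 values, were Gpc3 (0.12), St6gal1 (0.13), Slc30a1 (0.13), Arc (0.13) and Orc1 (0.14). Gpc3, a glypican of the cell surface, read 308 and 204 in cKO cells, against 304 and 136 in control cells. With only 4 arrays, this list is a description.

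The rest of the Wnt pathway was described with 7 gene lists, of which some share members. No gene of these lists was called between genotypes. Up to 3 kept genes per list are named for the smallest limma p in each comparison. A lack of overlap between the groups in a named gene is therefore no separate result. Over all 10134 kept genes, 864 lay above without overlap in cKO cells and 1221 below. Of other receptors and co-receptors, 9 of 11 genes were kept, with 3 higher in cKO cells, 6 lower and a median log2 difference of -0.12, against -0.04 over all 10134 kept genes. Of the 9, 0 lay above without overlap and 2 below. Musk, the receptor kinase of the neuromuscular junction, read 528 and 583 in cKO cells, against 677 and 952 in control cells, without overlap. Lrp5, the close relative of Lrp6, read 320 and 231 in cKO cells, against 247 and 446 in control cells, and Ror1, a Wnt5a receptor, read 1187 and 1029, against 838 and 1728. Adgra2, a co-activator of Wnt7 signals in brain vessels, overlapped between the groups (-0.71). Of the genes that clear Frizzled proteins from the surface or protect them, 2 of 9 were kept. Lgr4, an R-spondin receptor, read 771 and 779 in cKO cells, against 762 and 794 in control cells. Znrf3, a ubiquitin ligase for Frizzled proteins, read 223 and 180, against 197 and 268.

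Among ligands and the genes that make and secrete them, 5 of 22 were kept, with 2 higher, 3 lower and a median of -0.09. Of the 5, 0 lay above without overlap and 2 below. Porcn, the enzyme that attaches the lipid which Wnt proteins need to bind Frizzled, read 194 and 142 in cKO cells, against 260 and 331 in control cells. The groups did not overlap, with a log2 difference of -0.82 and an unadjusted limma p of 0.0538 (adjusted p = 0.99999). Wnt4 read 159 and 156 in cKO cells, against 193 and 174 in control cells, also without overlap. Wnt9a and Wnt11 overlapped (0.42 and 0.10). Of 19 antagonists, 6 were kept, with 3 higher, 3 lower and a median of -0.01. Of the 6, 1 lay above without overlap and 1 below. Apcdd1, a membrane inhibitor of Wnt that is itself a target, read 364 and 315 in cKO cells, against 294 and 250 in control cells. Kremen1, a Dkk receptor that removes Lrp6 from the surface, read 912 and 1122 in cKO cells, against 1138 and 1232 in control cells. Neither overlapped.

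In the signal-transducing list, 18 of 22 genes were kept, with 6 higher, 12 lower and a median of -0.07. Of the 18, 2 lay above without overlap and 4 below. Tle4, a co-repressor, lay below without overlap (-0.43), as did the kinase gene Csnk1a1 (-0.19), and Bcl9l, a beta-catenin co-activator, lay above (0.44). Of 17 targets of beta-catenin, 7 were kept, with 3 higher, 4 lower and a median of -0.19. Of the 7, 1 lay above without overlap and 1 below. Myc read 3197 and 3224 in cKO cells, against 3382 and 3946 in control cells, and Fst, an activin antagonist gene, overlapped (0.66). In the planar polarity list, 12 of 17 were kept, with 4 higher, 8 lower and a median of -0.06. Of the 12, 3 lay above without overlap and 2 below. Prickle1 read 251 and 183 in cKO cells, against 147 and 115 in control cells, and Vangl2, a membrane partner of Prickle in planar polarity, read 158 and 130, against 101 and 103. Rhoa lay below without overlap (-0.14). Centring arrays on their median adds the same 0.09 to every genotype difference, so the order of the genes stays as it is, and the medians of the ligand, antagonist, transducer and planar polarity lists became 0.0075, 0.079, 0.024 and 0.036. With quantile normalization they were -0.022, 0.058, -0.0093 and 0.0030.

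**Figure D4:**
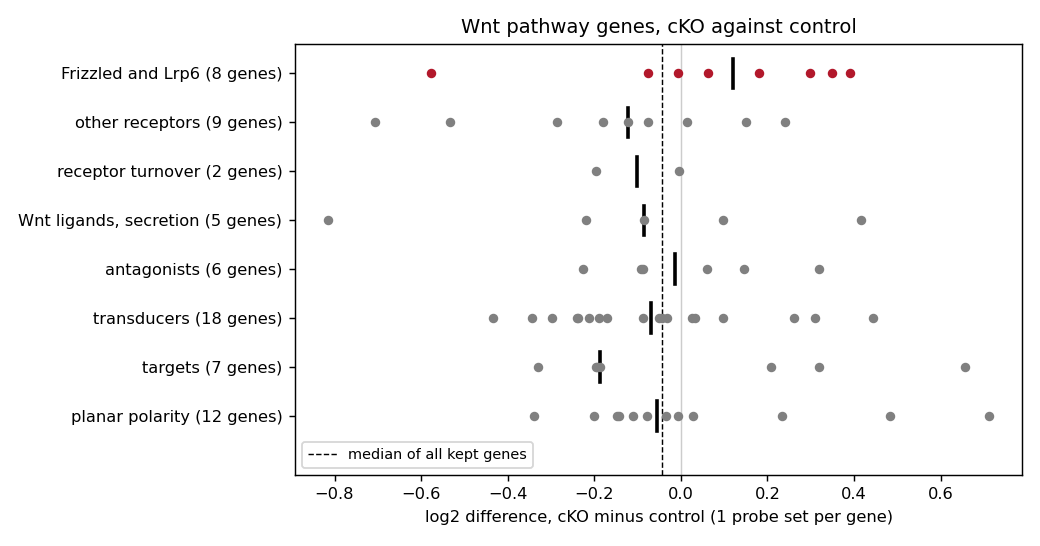
The log2 difference of cKO minus control for each kept gene of the Wnt lists (1 probe set per gene, its brightest), with Frizzled and Lrp6 in red; black bars are list medians and the dashed line is the median of all kept genes. The 8 Frizzled and Lrp6 genes had a median of 0.12.

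By replicate number, 2 of the 57 kept genes of the Wnt lists were called, both antagonists, against 284 of all 10134 kept genes (2.8%). Tmem88, an inhibitor of Dishevelled, read 606 (cKO) and 681 (control) on number 1, against 229 (cKO) and 230 (control) on number 2 (log2 difference 1.48, adjusted limma p of 0.0129). Sfrp5, a secreted protein with a Frizzled-like cysteine-rich domain, read 146 (cKO) and 167 (control) on number 1, against 48.6 (cKO) and 38.8 (control) on number 2 (1.82, adjusted limma p of 0.0215). Daam2, which links Dishevelled to the actin cytoskeleton, read 131 and 129 on number 1, against 48.2 and 46.9 on number 2 (cKO first in each pair, adjusted limma p of 0.0656). Sfrp5 and Daam2 passed the filter through number 1, since their number 2 signals lie below 64.0 and near the off-tissue 90th percentile, so the sizes of their differences rest on dim signals there. Tmem88, Sfrp5 and Daam2 were named for a small limma p by replicate number, and 257 of the 284 called genes were higher on number 1. Their direction is therefore no separate result. All 13 kept muscle fibre genes had a higher mean log2 signal on number 1 as deposited, 1 of them without overlap, and 0 were called. Also higher on number 1 were the endothelial list and most of the pericyte list given above, and part of the Schwann cell list. Of its 4 kept genes 3 were higher on both arrays numbered 1 and 1 was called, Mbp, a myelin gene, which read 1194 (cKO) and 1249 (control) on number 1, against 55.4 (cKO) and 96.2 (control) on number 2. The brightest, Pmp22, a further myelin gene, read 2888 (cKO) and 2729 (control) on number 1, against 2753 (cKO) and 2985 (control) on number 2, and overlapped. The part of these cell types in the differences of Tmem88, Sfrp5 and Daam2 was not tested.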

How the data were processed

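Total RNA of 4 sorted satellite cell samples (2 cKO, 2 control) was labelled with biotin and hybridised to 1 array each, per the labels' protocols. The deposited values are linear MAS5 intensity values per probe set, per the submitters' processing notes; the version and scaling target are not given in the sources used here. Depth on arrays is signal over background, and the number of arrays limits the precision.

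Probe sets were named from the platform annotation, with 34741 of 34945 single-symbol probe sets found in the mouse RefSeq gene table by Entrez identifier; probe sets with several symbols were not used for names. Values were analysed as log2(value + 1), so fold changes of low signals are understated. After removal of 64 AFFX controls, 22505 probe sets with a mean log2 value at or above the median of all probe sets were kept. Genotype, and replicate number 1 against 2, were each fitted over all kept probe sets by lmFit and eBayes (trend = TRUE) of limma 3.58.1 under R 4.3.3, with Benjamini-Hochberg adjustment at 0.05; p-values are 2-sided. Intervals are 95% limma intervals. For a gene of a list, the brightest kept probe set was used. The steps were tested on simulated data, where 30% of 2-fold and 92.6% of 4-fold genotype changes were recovered. The simulated noise was that left after both genotype and replicate number were fitted. It thus leaves out the differences by replicate number, which stay in the spread of the real genotype fit.

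Named genes were all member probe sets, Calcr, up to 3 kept genes per Wnt list with the smallest p in each comparison, up to 2 of the brightest kept genes per cell type list, and the 5 genes nearest in pattern to the widest-ranging member. The members and lists were chosen with earlier results of these data known. The alternatives tried were median centring, quantile normalization, no filter, a filter at the 75th percentile, a pseudocount of 32, no intensity trend, a replicate block (or genotype as a term), leaving out each array, and the mean over a gene's kept probe sets.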

Additional observations from a re-analysis of the deposited data

How the results depend on the processing

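No Frizzled or Lrp6 probe set was called in either comparison under the main setting or any alternative run. Over all probe sets, the replicate block gave 5 calls between genotypes against 0, and leaving out 1 array gave 0 to 5 (5 without cKO replicate 1, 1 without control replicate 1). The numbers were not taken as pairing the samples, since the labels do not say so and there are only 2 pairs; over kept probe sets the differences between replicates 1 and 2 of the 2 genotypes correlated at 0.43, and the block changed no Frizzled or Lrp6 call. Between replicate numbers, 519 calls became 141 with the filter at the 75th percentile, where fewer probe sets were tested, and 252 to 1750 with 1 array left out (267 without cKO replicate 1, 1444 without cKO replicate 2, 252 without control replicate 1 and 1750 without control replicate 2). Some log2 differences, on the brightest kept probe set of a gene, changed sign. With arrays centred on their median, the genotype difference was 0.016 for Fzd1 and 0.087 for Fzd5, and the number difference was -0.023 for Fzd1 and -0.052 for Fzd5; with quantile normalization, the genotype difference of Fzd5 was 0.051. With 1 array left out, genotype differences ran from -0.26 to 0.11 for Fzd1, -0.13 to 0.91 for Fzd2, -0.082 to 0.071 for Fzd5 and -0.18 to 0.30 for Lrp6, and number differences from -0.13 to 0.67 for Fzd3 and -0.32 to 0.10 for Fzd4. Apart from what a setting changes by construction, the cause was not tested. Signals near or below the filter limit Fzd2, Fzd3 and Fzd9, and signals in or near the off-tissue range limit Fzd6.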
